A study of Mus musculus with 4 samples.

Results

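Sema3a, Sema3c, Sema3d, Plxna2, Plxnd1, Nrp1 and Nrp2 encode class 3 semaphorins and their receptors, and their expression was measured in single cells of the mouse Mesp1 lineage. They were chosen by symbol, as 7 of the 27998 genes in the deposited count tables. The Mesp1 lineage consists of the descendants of early mesoderm cells that expressed Mesp1 and includes heart, blood vessels and much of the head and pharyngeal mesoderm. There were 4 libraries, 1 per stage, and all of them came from Swiss Webster embryos of the genotype Mesp1Cre;Rosa26-GFPflox/+. In these embryos Cre recombinase made from the Mesp1 gene removes a stop in the reporter, so that a cell and all its descendants carry GFP. No animal was mutant or treated. GFP-positive cells that excluded DAPI, a dye that enters dead cells, were sorted from pooled embryos. At E8.0 and E8.25 (days of embryonic development) the rostral part of the body was dissected, whereas at E9.5 and E10.5 it was the pharyngeal apparatus with the heart. Stage, dissected region and library therefore cannot be told apart, and no test was made between stages.

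Class 3 semaphorins are secreted guidance cues. Most of them bind a neuropilin, Nrp1 or Nrp2, which has no signalling domain of its own and works together with a plexin of the A or D class, and the plexin passes the signal to the cytoskeleton. In the developing heart Sema3c is known for its role in septation of the outflow tract, with Plxna2 in cardiac neural crest and Plxnd1 in endothelium among its receptors. Neuropilins also serve as co-receptors of vascular endothelial growth factors, with Nrp1 typical of arteries and Nrp2 of veins and lymphatic vessels. Of the 7 genes, 3 are ligands and 4 are receptor subunits.

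The genes lie on chromosome 5 (Sema3a, Sema3c and Sema3d), chromosome 1 (Plxna2 and Nrp2), chromosome 6 (Plxnd1) and chromosome 8 (Nrp1). The sequences before the start sites of Sema3c and Nrp2 are shown because both genes were higher in outflow cardiomyocytes than in cardiac progenitors, as described further on. They are the 250 bases before the RefSeq start site on GRCm38.p6, plus strand, at chr5:17574566-17574815 for Sema3c and at chr1:62703067-62703316 for Nrp2. Capitals mark words read on both strands for GATA factors (AGATAA, then TGATAA, then AGATAG, then TGATAG), ETS factors (CGGAAG), NKX2 factors (TNAAGTG) and T-box factors (GGTGTGA).
Sema3c: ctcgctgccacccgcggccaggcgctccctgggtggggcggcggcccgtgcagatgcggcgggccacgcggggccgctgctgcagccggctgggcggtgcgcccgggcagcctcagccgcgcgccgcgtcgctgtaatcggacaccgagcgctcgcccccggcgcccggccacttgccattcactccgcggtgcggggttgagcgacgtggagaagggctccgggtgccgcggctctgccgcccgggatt
Nrp2: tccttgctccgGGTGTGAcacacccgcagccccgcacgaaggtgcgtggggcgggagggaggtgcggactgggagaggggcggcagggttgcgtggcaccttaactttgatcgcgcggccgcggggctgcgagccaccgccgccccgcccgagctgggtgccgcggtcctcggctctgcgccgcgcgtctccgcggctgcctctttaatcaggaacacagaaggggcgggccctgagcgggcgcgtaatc
The T-box word was found in the Nrp2 window, beginning at position -239 from the start site, and in 3.33% of 32544 mouse windows of the same length. None of the 4 kinds of word was found in the windows of Sema3c, Plxnd1 and Nrp1, and Nrp1 was also higher in outflow cardiomyocytes than in cardiac progenitors. The windows of Sema3a and Plxna2, not shown, held 1 GATA word each, and that of Sema3d held 1 NKX2 word. The windows of Sema3a, Plxnd1 and Nrp1 lay inside the annotated span of their gene, so they do not precede its outermost start. That of Sema3a, at chr5:13396534-13396783, was deep within a gene annotated from 13124822 to 13603485. The GATA words were found in 26.5% of all windows, the ETS word in 13.7% and the NKX2 word in 10.0%. Of the bases shown, 78.4% were G or C for Sema3c and 72.4% for Nrp2. A match is a description of letters, and no measurement here bears on binding.

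After removal of low-quality cells and doublets, 7117, 2884, 3921 and 7523 cells were retained in the order of stages, with medians of 15208 to 35216 UMIs (distinct captured transcripts) per cell. Cells were assigned to compartments by marker genes that include none of the 7 genes. In the same order, which is used throughout, the gate of cardiomyocytes with outflow tract markers held 69, 10, 81 and 66 cells and that of other cardiomyocytes 198, 29, 333 and 151. The cardiac progenitor gate, which asked for Isl1 and Nkx2-5 in cells below the cardiomyocyte cut-off, held 637, 253, 339 and 318 cells, and the endothelial gate 653, 231, 235 and 422. All other retained cells that were neither blood nor macrophages formed the other mesoderm compartment of 2046 to 5496 cells. The 9 endothelial markers summed to between 1350 and 2390 CPM (UMIs per 1000000 UMIs of the compartment) in the endothelial gate and to between 50.9 and 169 CPM in the other 4 compartments. The 9 cardiomyocyte markers summed to between 15000 and 32700 CPM in the cardiomyocyte gates and to at most 600 CPM in the other 3 compartments. Outflow markers were higher in the outflow gate, at 605 to 995 CPM, than in other cardiomyocytes at 200 to 428 CPM, and cardiac progenitors reached 536 CPM. Isl1 is a marker in both gates. The same markers define the gates, so these sums describe them and are no independent check. Many cells lay near a cut-off, so that 143, 56, 38 and 37 endothelial cells were within a factor of 2 above the endothelial threshold and 777, 177, 199 and 230 other cells within a factor of 2 below it. For the cardiomyocyte threshold these were 60, 11, 58 and 31 cardiomyocytes above and 60, 14, 133 and 84 other cells below. Between 16 and 88 cell barcodes were shared by any 2 libraries, at most 1.39% of the smaller one.

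Levels are given in CPM with an exact 95% Poisson interval, which covers counting error only, and each is the value of 1 library. In bulk sums of this kind, fewer expressing cells and less RNA per cell cannot be told apart. Compartments were compared with the quasi-likelihood test of edgeR on UMIs summed per library and compartment, with the library as a block, and p-values were adjusted over all genes tested. These p-values rest on the spread between 4 libraries of different stages. They ask for a difference shared by the stages. The outflow sum at E8.25 held only 10 cells and was left out of the fit, so that comparisons with outflow cardiomyocytes rest on 3 libraries.

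Sema3c, the ligand tied to outflow tract septation, had its highest level in outflow cardiomyocytes of the late libraries. The early outflow values were 3.20 CPM (0.871 to 8.19) and 19.7 CPM (6.38 to 45.9), from 4 and 5 UMIs, and the late ones 91.7 CPM (75.7 to 110) and 160 CPM (137 to 187). In cardiac progenitors it was at 0.810, 3.92, 27.8 and 58.5 CPM in the same order, in other cardiomyocytes at 4.38, 3.95, 27.4 and 18.8 CPM, and in other mesoderm at 2.01, 2.65, 17.6 and 22.1 CPM. Both late outflow values were above every early value and above every value in the other compartments. The endothelial gate stood apart, with 0 UMIs at E8.0, which allows up to 0.214 CPM, and 2, 3 and 11 UMIs in the later libraries, or 0.276, 0.736 and 1.44 CPM. Erythroid cells, taken as a background for Sema3c, were at 0 to 0.997 CPM, so that its endothelial level was near background.

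Sema3a, a repellent of axons and endothelial cells, followed another course. In outflow cardiomyocytes the early values were 25.6 CPM (17.5 to 36.1) and 35.4 CPM (16.2 to 67.1) and the late ones 18.3 CPM (11.6 to 27.5) and 8.79 CPM (4.02 to 16.7), with only 9 UMIs in each of the E8.25 and E10.5 sums. Cardiac progenitors held it at 12.2, 10.6, 12.4 and 11.7 CPM, a range narrower than their counting intervals. Other mesoderm had the reverse order of early and late values, with 3.4 and 4.09 CPM early and 20.5 and 28.6 CPM late, and in the endothelial gate the values were 2.07, 3.18, 9.32 and 8.62 CPM.

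Sema3d, another of the ligands, was sparsely detected, with 60 to 588 UMIs in a whole library. Outflow cardiomyocytes held 0, 0, 4 and 7 UMIs of it. Other mesoderm was at 0.545, 0.620, 3.81 and 6.49 CPM, cardiac progenitors at 1.35, 1.03, 1.63 and 4.10 CPM, and endothelial cells at 0.138 to 0.523 CPM. Values of the outflow gate for this gene therefore rest on very few molecules.

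Plxnd1, the plexin of endothelial cells, reached 35.3 CPM (32.2 to 38.5) and 40.9 CPM (36.4 to 45.9) in the endothelial gate of the early libraries, and 81.7 CPM (73.1 to 90.9) and 117 CPM (110 to 125) in the late ones. Every value in outflow cardiomyocytes, other cardiomyocytes, cardiac progenitors and other mesoderm lay between 0 and 7.90 CPM, so that the lowest endothelial value was above all of them. Erythroid cells were at 4.18 and 9.37 CPM early and at 2.64 CPM at E10.5, and the E9.5 library held only 4 of them. At E8.25 they were 10.9% of the retained cells and held 22.8% of the Plxnd1 UMIs, at a level above that of cardiac progenitors (2.68 CPM), so that they were not an empty background for Plxnd1. Endothelial cells were 9.18%, 8.01%, 5.99% and 5.61% of the retained cells and held 57.5%, 42.7%, 66.9% and 70.2% of the Plxnd1 UMIs.

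Plxna2, the A-class plexin of the group, was at 3.20 CPM (0.871 to 8.19), 7.86 CPM (0.952 to 28.4), 3.99 CPM (1.29 to 9.30) and 4.88 CPM (1.59 to 11.4) in outflow cardiomyocytes, a total of 16 UMIs. Cardiac progenitors were at 10.9, 13.6, 15.3 and 5.78 CPM, endothelial cells at 5.64, 9.68, 9.32 and 8.49 CPM, and other mesoderm at 8.03, 11.5, 19.4 and 19.9 CPM. The outflow interval overlapped that of endothelial cells in 4 of 4 libraries and that of cardiac progenitors at E8.25 and E10.5.

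Nrp1, a receptor shared by semaphorins and growth factors, was present in all 5 compartments. Endothelial cells held it at 94.3 CPM (89.2 to 99.5), 164 CPM (155 to 174), 145 CPM (133 to 157) and 152 CPM (143 to 161), and other cardiomyocytes at 124 CPM at E8.0, 163 CPM at E9.5, and within 85.7 to 127 CPM at E8.25 and 92.2 to 118 CPM at E10.5. In outflow cardiomyocytes it was at 113, 47.2, 128 and 163 CPM, the second value from 12 UMIs. Cardiac progenitors had the lowest value of the 5 compartments at E8.0, E9.5 and E10.5, with 62.4, 34.3 and 56.1 CPM against 84.5, 72.9 and 77.8 CPM in other mesoderm.

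Nrp2, its relative, was also present in all 5 compartments, with the 2 cardiomyocyte gates apart. Outflow cardiomyocytes held 152 CPM (131 to 175) and 90.4 CPM (57.3 to 136) early, and 200 CPM (176 to 226) and 480 CPM (438 to 524) late. Other cardiomyocytes were at 83.3, 53.4, 15.4 and 24.0 CPM, so that every outflow value was above every value of the other gate, although at E8.25 the counting intervals met. Endothelial cells were at 221, 73.1, 55.7 and 145 CPM, above the outflow gate at E8.0 and below it at E9.5 and E10.5. At E10.5 the outflow gate was 0.877% of the retained cells and held 5.78% of the Nrp2 UMIs and 6.94% of the Sema3c UMIs.

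**Figure D1:**
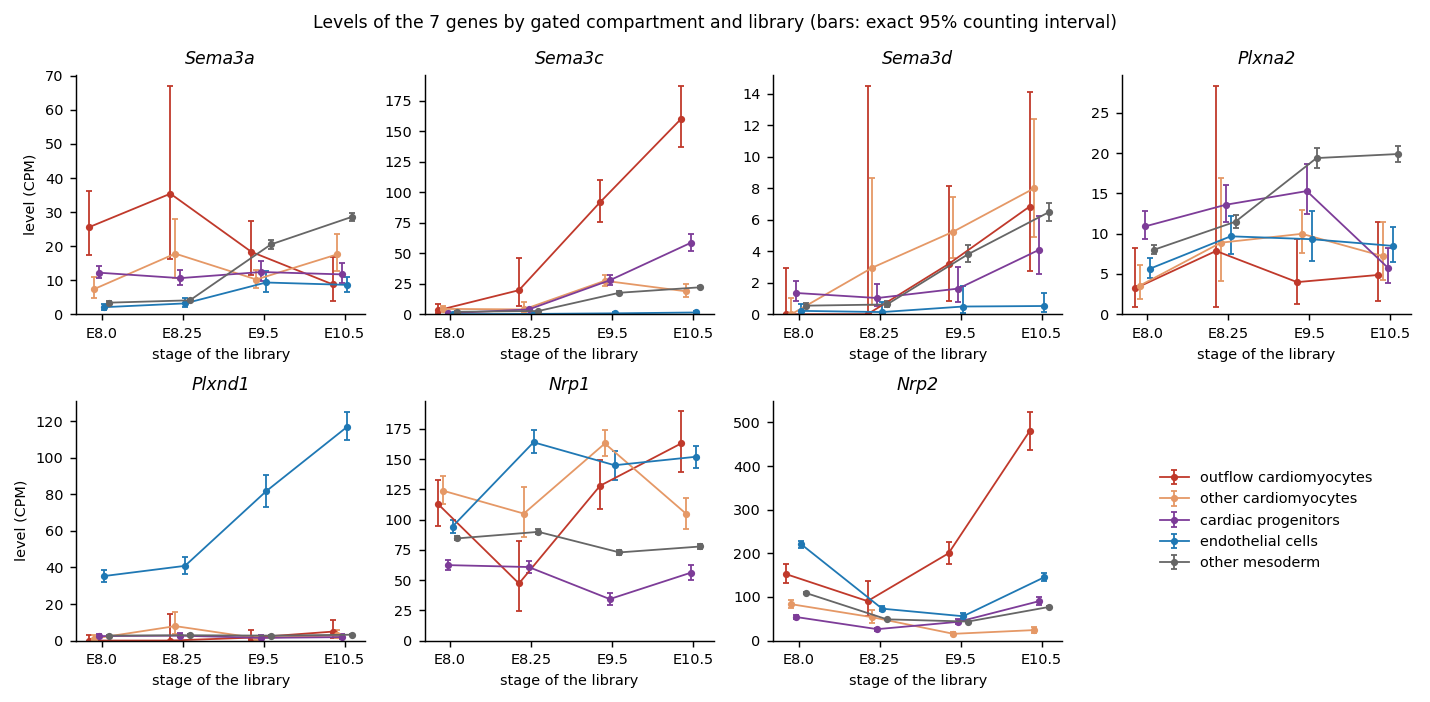
Each panel plots 1 gene's level in CPM (vertical axis, linear, from 0) against the stage of the library, with 1 line for each of 5 compartments and bars for the exact 95% Poisson interval of that library. Sema3c and Nrp2 are highest in outflow cardiomyocytes at E10.5 (160 and 480 CPM), and Plxnd1 is near the baseline outside the endothelial gate.

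Compared with cardiac progenitors, outflow cardiomyocytes had more Nrp2, Sema3c and Nrp1 and less Plxna2. Of the 7 genes, 4 were called at an adjusted p below 0.05, and 29.7% of the 12605 genes tested were called in this comparison. Nrp2 was higher by 2.37 ± 0.43 (log2 fold change ± SE, edgeR adjusted p = 0.000929), with 277 ± 177 against 62.4 ± 24.9 CPM (mean ± SD, 3 libraries). Nrp1 was higher by 1.42 ± 0.24 (edgeR adjusted p = 0.000488), with 134 ± 25.9 against 50.9 ± 14.7 CPM. Sema3c was higher by 1.79 ± 0.39 (edgeR adjusted p = 0.00288), although its SDs of 78.7 and 28.9 CPM were about as large as the means of 85.0 and 29.1 CPM, with E8.0 far below the other libraries. All 3 genes were higher in 3 of 3 libraries, and for Sema3c the E8.0 difference was within counting error and the others beyond it. Plxna2 was lower by 1.5 ± 0.50 on the log2 scale (edgeR adjusted p = 0.0324) in 3 of 3 libraries. The E10.5 difference was within counting error. Its call was lost in 6 of 12 alternative settings, among them without the E8.0, E8.25 or E9.5 library, and the adjusted p ranged from 0.00953 to 0.227 over all 12. The call of Sema3c was lost when the E9.5 library was left out (edgeR adjusted p = 0.0736) and without the library block (0.271), and over its 12 alternatives the adjusted p ranged from 0.000801 to 0.271. Without the E9.5 library, 2 of the 7 genes were called, beside 1929 of 13109 over all genes tested.

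Markers of other tissues were also read in the outflow gate. The 4 endoderm and epithelium markers, of which 1 to 3 were at 0 in each library, summed to 309, 468, 216 and 72.3 CPM there, against 226, 152, 80.2 and 68.2 CPM in cardiac progenitors. Their part in these differences was not tested. Endothelial markers summed to 93.8 to 169 CPM in the outflow gate, with 3 to 5 of 9 at 0, and Plxnd1 itself was at 0 to 4.88 CPM there.

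Between the 2 cardiomyocyte gates, Nrp2 was called, as 1 of the 7 genes, where 0.301% of all genes were called. It was higher in the outflow gate by 2.64 ± 0.48 (log2 fold change ± SE, edgeR adjusted p = 0.0275) and in 3 of 3 libraries, with log2 ratios of 0.87, 3.70 and 4.32 at E8.0, E9.5 and E10.5. Sema3c had a fitted difference of 1.90 ± 0.43 that missed the threshold (edgeR adjusted p = 0.0994, or 0.00826 to 0.941 over 12 alternatives, of which 4 called it), and its single-library log2 ratios were -0.46 at E8.0, within counting error, 1.74 at E9.5 and 3.09 at E10.5. Nrp1 had a fitted difference of 0.05 ± 0.24. The Nrp2 call was lost without the E8.25, E9.5 or E10.5 library, each of which left 0 of 7 genes called. Over all genes tested, those fits called 11 of 12384, 3 of 13109 and 2 of 12763 in this order. Leaving out the E8.0 library gave 2 of 7 (Nrp2 and Sema3c), beside 51 of 12835 over all genes. With only these 2 compartments fitted, Sema3c was called (adjusted p = 0.044) and Nrp2 was not (0.0623). Over 12 alternatives the adjusted p of Nrp2 ranged from 2.58e-05 to 0.494, and the direction was the same in all of them. The E8.25 library gives no outflow sum to this fit and enters it through the other compartments.

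Compared with cardiac progenitors, endothelial cells had more Plxnd1, Nrp1 and Nrp2 and less Sema3c and Sema3d, which makes 5 of 7 genes called against 38.6% of all genes. Plxnd1 was higher by 4.87 ± 0.38 (log2 fold change ± SE, edgeR adjusted p = 1.25e-07), with 68.8 ± 38.3 against 2.11 ± 0.550 CPM (mean ± SD, 4 libraries). Nrp1 was higher by 1.46 ± 0.20 (edgeR adjusted p = 4.85e-05) and Nrp2 by 1.26 ± 0.39 (edgeR adjusted p = 0.0188), each in 4 of 4 libraries. For Nrp2 the single-library log2 ratios were 2.04 and 1.49 early and 0.38 and 0.69 late. Its call was lost in 2 of 12 alternatives, without the E8.25 library and without the library block, with an adjusted p of 0.0012 to 0.0991 over all 12. Sema3c was lower by 4.82 ± 0.56 on the log2 scale (edgeR adjusted p = 7.63e-06), at 0.612 ± 0.628 against 22.8 ± 26.7 CPM, in 4 of 4 libraries. Sema3d was lower by 2.62 ± 0.68 (edgeR adjusted p = 0.00676) in 4 of 4 libraries, on 1 to 4 endothelial UMIs per library, and the call was lost in 3 of 11 alternatives, without the E10.5 library, with looser gates and without the library block, with an adjusted p of 0.000814 to 0.138 over all 11. Sema3a, at -1.25 ± 0.56, did not pass (edgeR adjusted p = 0.0916), nor did Plxna2 at -0.41 ± 0.27.

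Set against outflow cardiomyocytes, endothelial cells again had more Plxnd1 and less Sema3c and Sema3d. These were 3 of the 7 genes, while 38.0% of all genes were called. Plxnd1 was higher by 5.10 ± 0.64 (log2 fold change ± SE, edgeR adjusted p = 1.88e-05) and Sema3c lower by 6.61 ± 0.58 (edgeR adjusted p = 4.96e-07), both in 3 of 3 libraries and under all 12 alternatives. Sema3d was lower by 2.70 ± 0.94 (edgeR adjusted p = 0.0336) in 2 of 3 libraries. The call was lost without the E8.25, E9.5 or E10.5 library, and under stricter gates the log2 fold change turned to 6.65 (adjusted p = 0.593), where the 2 outflow sums that remained held 0 UMIs of the gene. Nrp2 had a fitted difference of -1.12 ± 0.43 (edgeR adjusted p = 0.0521, or 0.000356 to 0.338 over 12 alternatives, 0.00381 without the E8.0 library), and its log2 ratios were 0.54 at E8.0, -1.85 at E9.5 and -1.72 at E10.5, each beyond counting error. For Nrp1 the fitted difference was 0.05 ± 0.24 and the log2 ratios were -0.26, 0.18 and -0.11, each within counting error.

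Between cardiac progenitors and other mesoderm edgeR called 0 of the 7 genes, against 0.960% of all genes, with 1 gene at an unadjusted p under 0.05 and 0 called by DESeq2. That gene was Nrp1, lower in progenitors in 4 of 4 libraries, at 53.4 ± 13.0 against 81.3 ± 7.47 CPM (log2 fold change -0.62 ± 0.20, edgeR adjusted p = 0.227). It passed when only these 2 compartments were fitted (adjusted p = 0.0285, the lowest of 12 alternatives, where the highest was 1.0). Behind the null result for Sema3a stood differences of opposite sign, with log2 ratios of progenitors to other mesoderm of 1.85 and 1.38 in the early libraries and -0.73 and -1.29 in the late ones, all beyond counting error. Whether early and late libraries differ in this respect was not tested.

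**Figure D2:**
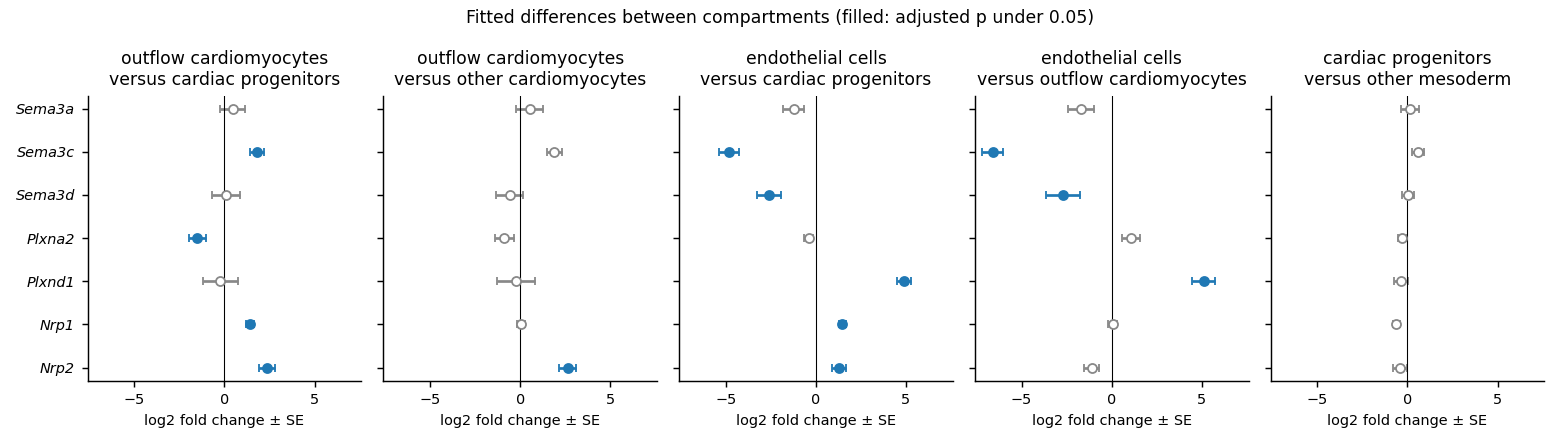
For 5 comparisons of compartments, the plot gives the fitted log2 fold change (horizontal axis, error bars ± 1 SE) of each gene, filled where the adjusted p was under 0.05. Plxnd1 lies at 4.87 and 5.10 and Sema3c at -4.82 and -6.61 in the endothelial comparisons, and no symbol is filled between cardiac progenitors and other mesoderm.

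The split of endothelial cells by Nfatc1, a transcription factor of the endocardium, gave no call among these genes. By edgeR 0 of the 5 genes that could be tested were called, where 0.136% of 10327 genes were called, with 1 gene at an unadjusted p under 0.05 and 0 called by DESeq2. Sema3c and Sema3d were too rare in endothelium to be tested. Plxnd1 was at 34.0, 42.3, 72.6 and 110 CPM in Nfatc1-positive and at 35.9, 40.4, 89.3 and 122 CPM in Nfatc1-negative cells, with the log2 difference fitted at -0.13 ± 0.09. Nrp2 was at 232, 92.0, 36.0 and 92.0 CPM in Nfatc1-positive and at 216, 65.7, 72.2 and 181 CPM in Nfatc1-negative cells, higher in the first at both early stages and in the second at both late stages. With no filter on low counts Nrp2 alone was called, beside 279 of 17851 over all genes.

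Within the endothelial gate, cells were also divided by markers of artery (Dll4, Gja4 and Gja5) and vein (Nr2f2), keeping those with a UMI of 1 kind and none of the other. This gave 236, 33, 55 and 91 arterial-only cells and 174, 111, 82 and 130 venous-only cells, and since such a split depends on detection it was described without a test. Nrp2 was at 250, 89.5, 94.3 and 283 CPM in venous-only cells and at 196, 31.7, 18.3 and 45.1 CPM in arterial-only cells, and the counting intervals were apart in all 4 libraries. Nrp1 was at 77.4, 162, 205 and 220 CPM in arterial-only cells and at 103, 132, 175 and 109 CPM in venous-only cells, lower in the arterial-only cells at E8.0 and higher at E10.5, with intervals that met at E8.25 and E9.5. Plxnd1 was at 37.4, 59.7, 111 and 122 CPM in arterial-only and at 36.8, 41.9, 83.5 and 113 CPM in venous-only cells, and the intervals met in all 4 libraries.

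**Figure D3:**
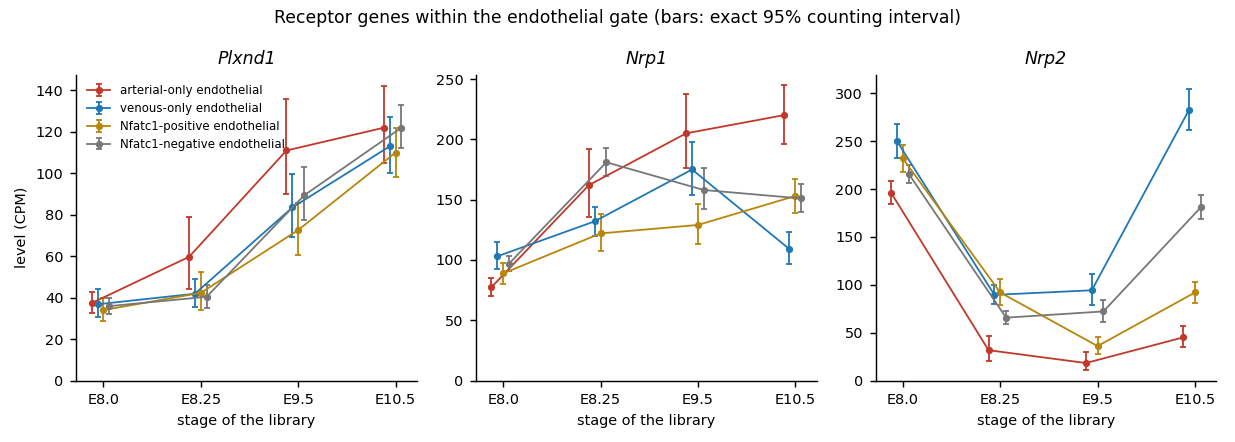
The level in CPM (vertical axis, linear, from 0) of 3 receptor genes is plotted against the stage of the library for 4 subsets of the endothelial gate, with exact 95% Poisson intervals as bars. Nrp2 is higher in venous-only than in arterial-only cells in every library, from 250 against 196 CPM at E8.0 to 283 against 45.1 CPM at E10.5, and the Plxnd1 lines are widest apart at E9.5, from 72.6 CPM in Nfatc1-positive to 111 CPM in arterial-only cells.

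Between stages, a gene was counted as different where both late libraries were at least 2-fold over, or at least 2-fold under, both early libraries of the same compartment, among genes with at least 20 UMIs over the 4 sums. In cardiac progenitors 1 of 7 genes met this, Sema3c, higher late, where 4.98% of all genes were higher and 1.66% lower. In outflow cardiomyocytes Sema3c alone was higher of the 4 genes with enough UMIs, where 3.36% of all genes were higher and 1.74% lower, with a log2 ratio between the E10.5 and E8.0 libraries of 5.65 (4.26 to 7.54). The E8.25 outflow sum of 10 cells, with 5 Sema3c UMIs, was kept in this count. The 2-fold margin of E9.5 over it was not clear of its counting interval. In endothelial cells Sema3a was the 1 gene of 5 with enough UMIs that was higher late, against 5.37% of all genes higher and 2.50% lower. Plxnd1 lay just outside, since its E9.5 level of 81.7 CPM fell short of 2-fold over the E8.25 level of 40.9 CPM by a small margin, and from E8.0 to E10.5 its log2 ratio was 1.73 (1.57 to 1.89). In other mesoderm the 3 ligands were all higher late and the 4 receptors were not counted, where 7.89% of all genes were higher and 2.99% lower. There the log2 ratios between the E10.5 and E8.0 libraries were 3.08 for Sema3a, 3.46 for Sema3c and 3.57 for Sema3d, against 1.31 for Plxna2, 0.22 for Plxnd1, -0.12 for Nrp1 and -0.50 for Nrp2. The makeup of this compartment also differed between stages, with 1511 paraxial, 53 branchiomeric muscle and 96 mesothelial cells of 5496 at E8.0 against 348, 994 and 339 of 5462 at E10.5. By a count made after these values were seen, both late libraries were at least 2-fold over both early ones within 6 of 6 groups into which markers divide it for Sema3a and for Sema3c, within 4 of 6 for Sema3d and within 1 of 6 for Plxna2. Nrp1 was at least 2-fold higher early in 1 of 6. Some early sums were small, with 2 UMIs of Sema3c and 3 of Sema3a in E8.0 branchiomeric muscle, and 0 and 2 in E8.0 mesothelial cells. The share of all genes meeting this rule was not counted within the groups, and the part of the makeup was not tested.

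The other mesoderm compartment was divided further by markers. The neural crest-like group, in which Plxna2 would be of interest, held at most 10 cells in 3 of the 4 libraries, and at E8.25 its Plxna2 level was 5.07 CPM (3.22 to 7.61). Cranial mesenchyme had the highest Sema3a level of the sub-gates in the late libraries, at 37.8 and 44.1 CPM after 6.28 and 7.33 CPM, and held 49.3% and 51.6% of all Sema3a UMIs of those libraries. Cells of the mesothelial gate, named for the lining that includes the precursors of the epicardium, were at 0, 0.904, 11.4 and 35.7 CPM for Sema3d. At E10.5 they held 43.2% of the Sema3d UMIs in 4.51% of the cells. They also had the highest Nrp1 level of all gates in each library with at least 20 cells in the gate, at 251, 361, 176 and 198 CPM, apart from arterial-only endothelium at E9.5 and E10.5. Cytokeratin and other epithelial markers summed to 1660, 1510, 241 and 181 CPM in the mesothelial gate, and their part in its levels was not tested. Whether the gate holds the same cell type early and late was not tested either. Sema3c differed little between sub-gates at E9.5, where it ranged from 12.5 to 19.8 CPM. At E8.0 paraxial cells had the highest Sema3c level of the sub-gates at 4.52 CPM and held 54.7% of its UMIs. In branchiomeric muscle cells Nrp2 was at 122, 72.5, 79.4 and 134 CPM and in posterior second heart field cells at 61.6, 27.2, 12.8 and 46.8 CPM, lower in the second in every library.

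**Figure D4:**
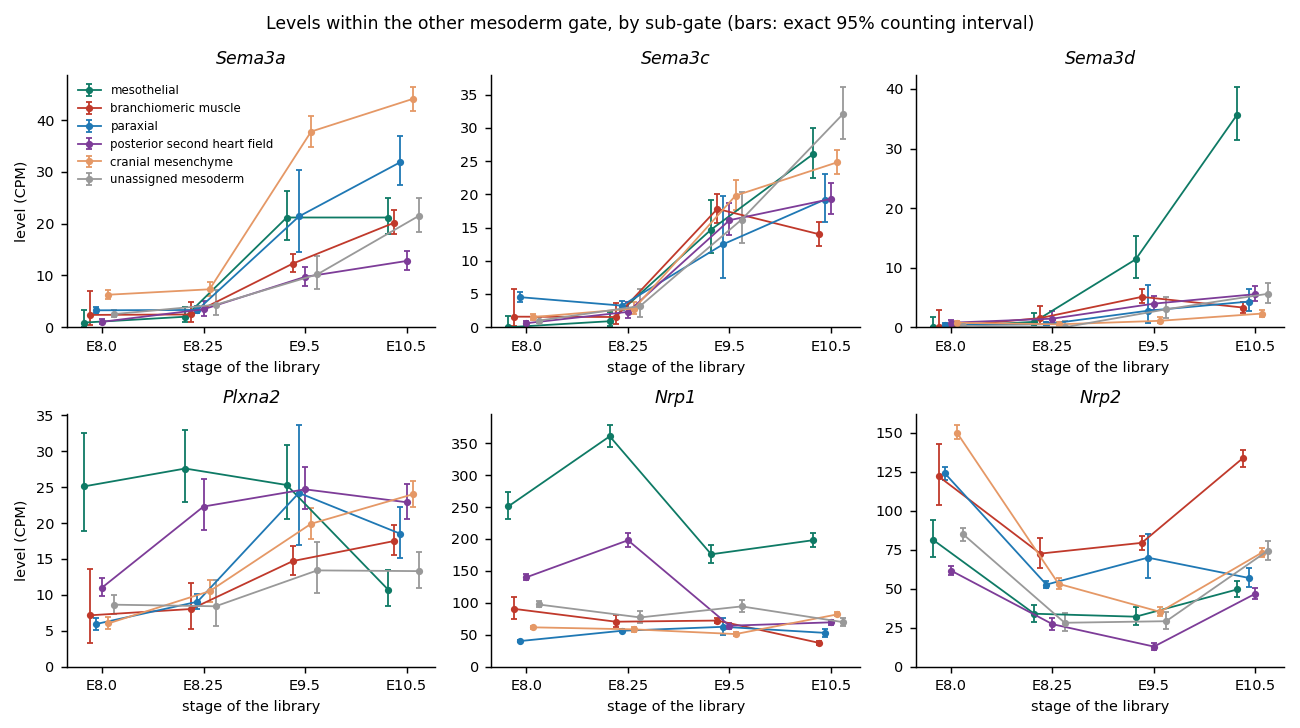
The level in CPM (vertical axis, linear, from 0) of 6 genes is plotted against the stage of the library for 6 sub-gates of other mesoderm, with exact 95% Poisson intervals as bars. The mesothelial line is highest for Nrp1 in all 4 libraries (176 to 361 CPM) and for Sema3d at E9.5 and E10.5, and cranial mesenchyme is highest for Sema3a late (37.8 and 44.1 CPM).

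In single cells, each thinned to 5000 UMIs to remove the effect of depth, the share with a Plxnd1 UMI in the endothelial gate was 18.2% (exact binomial 95% interval 15.3 to 21.4), 20.8% (15.7 to 26.6), 38.5% (32.2 to 45.0) and 44.5% (39.7 to 49.4). Without thinning these shares were 47.2%, 64.5%, 67.7% and 76.8%. Erythroid cells gave 3.12% and 3.81% early and 1.27% at E10.5, or 12.5%, 39.0% and 6.24% without thinning, at median depths of 35351, 52203 and 28150 UMIs before thinning against 21634, 31095 and 17627 in the endothelial gate. The share of outflow cardiomyocytes with a Sema3c UMI was 1.45% at E8.0 and then, in the late libraries, 34.6% (24.3 to 46.0) and 43.9% (31.7 to 56.7), or 5.80%, 55.6% and 65.2% without thinning. At E8.25 it was 0 of 10 cells, for which the exact interval reaches 30.8% and the limit of 3 counts 30.0%, and 20% without thinning. For Nrp2 the outflow shares were 47.8%, 30.0%, 45.7% and 66.7%, or 78.3%, 80%, 59.3% and 81.8% without thinning. Thinned erythroid shares were at most 0.585% for Sema3c, 1.56% for Nrp1 and 2.22% for Nrp2, and the outflow median depths were 14828.5 to 27163 UMIs. Without thinning the erythroid shares of Nrp2 were 10.9% and 26.3% early and 6.53% at E10.5. The thinned outflow shares of Nrp2 at E8.0, E8.25 and E10.5 and of Sema3c at E10.5 were above the erythroid values, and with 4 erythroid cells E9.5 gives no such background. The haemoglobin markers, a sign of free RNA from blood, summed to 6.38 to 5510 CPM in the outflow gate, and their part in the shares was not tested.

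Plxnd1 and Nrp1, which can form one receptor, were compared cell by cell after thinning. In the order of stages, 39.5%, 45.8%, 43.3% and 46.3% of endothelial cells with a Plxnd1 UMI also had one of Nrp1, against 36.5%, 45.9%, 45.8% and 48.3% of those without. In outflow cardiomyocytes 7 of 28 cells with a Sema3c UMI had one of Nrp1 at E9.5, against 24 of 53 without, and at E10.5 these were 16 of 29 and 16 of 37. The order was thus not the same in the 2 libraries. After thinning, 0 outflow cells held UMIs of both Sema3c and Plxna2, and Plxna2 was itself in at most 1 outflow cell of each library.

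**Figure D5:**
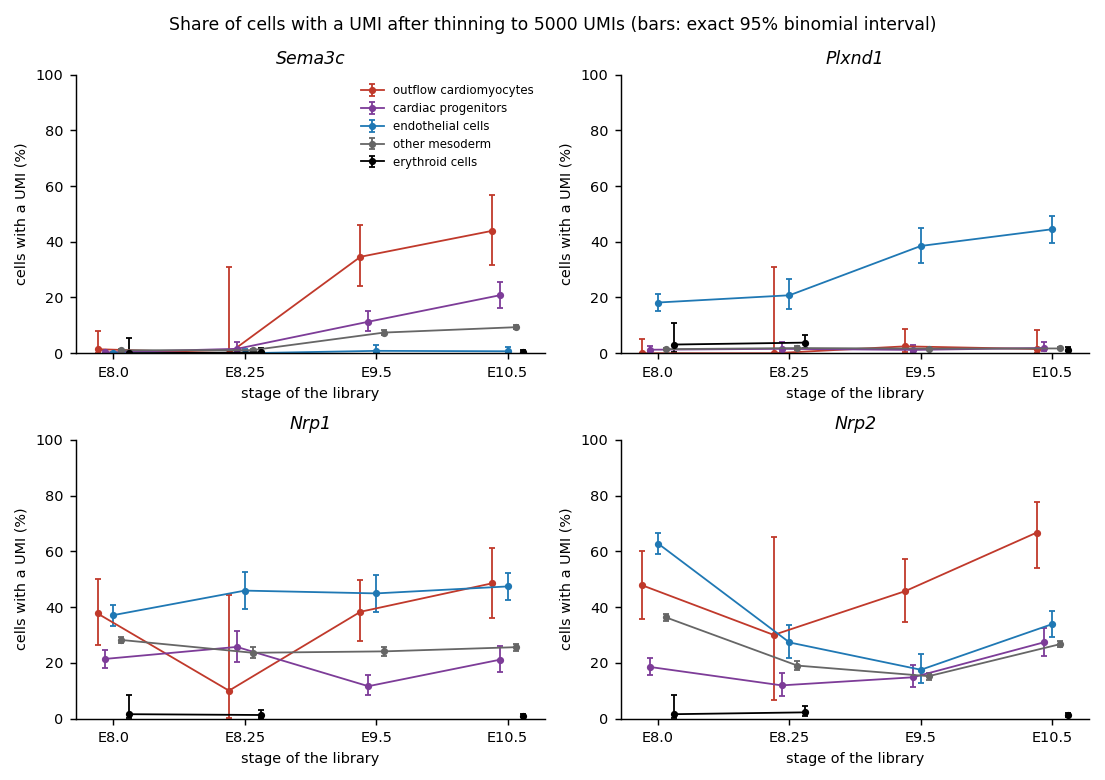
The share of cells with at least 1 UMI after thinning to 5000 UMIs (vertical axis, percent, 0 to 100) is plotted against the stage of the library for 4 genes in 5 gates, with exact 95% binomial intervals as bars, and the 4 erythroid cells of E9.5 are left out. Plxnd1 is in 18.2% to 44.5% of endothelial cells and in at most 3.81% of the erythroid cells drawn, and the wide outflow bars at E8.25 come from 10 cells.

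The rest of the pathway, 45 genes of which 38 could be tested, moved in both directions. Between endothelial cells and cardiac progenitors 14 were higher and 11 lower, with a median log2 fold change of -0.08 against -0.01 over all genes tested, and between outflow cardiomyocytes and cardiac progenitors 4 were higher and 2 lower, with a median of -0.16 against -0.03. Between endothelial cells and outflow cardiomyocytes 14 were higher and 6 lower, with a median of 0.32 against 0.07. All genes called make up 38.6%, 29.7% and 38.0% of those tested in these comparisons. Of the VEGF receptors that pair with neuropilins, Flt4, Flt1 and Kdr were all higher in endothelial cells than in progenitors, by 6.27 ± 0.46, 4.88 ± 0.32 and 2.77 ± 0.50 (log2 fold change ± SE), while the growth factor Vegfa was lower by 0.72 ± 0.27. Among the class 3 ligands, Sema3g was higher in endothelial cells by 4.70 ± 0.67 and Sema3e and Sema3f were lower, by 1.92 ± 0.59 and 0.56 ± 0.21, so that Sema3g went against Sema3c and Sema3d. In outflow cardiomyocytes Plxna4, another A-class plexin, was higher than in progenitors by 2.42 ± 0.63, at 19.4 ± 7.43 CPM, where Plxna2 was lower, and Sema3f and Sema5a were lower by 1.37 ± 0.41 and 3.46 ± 0.75. Rnd1, a small GTPase that binds plexins, was the 1 pathway gene of 38 called between the 2 cardiomyocyte gates (0.301% of all genes), higher in outflow by 3.17 ± 0.43, the same side as Nrp2. Mical2, an enzyme of the family that acts on actin below plexins, was higher than in progenitors in outflow cardiomyocytes (3.0 ± 0.64) and in endothelial cells (3.22 ± 0.51). Between progenitors and other mesoderm edgeR called 0 of 38 (0.960% of all genes), with 3 at an unadjusted p under 0.05 and 2 called by DESeq2.

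The genes with the most similar pattern were sought over 23 sums of a library and compartment, which share libraries and depth, by Pearson's r of log2(CPM + 1). Beside the 5 main compartments, these sums included erythroid cells, where a library held at least 20, and the macrophages of E10.5. Erythroid cells were far lower than the main compartments for some genes, with Nrp1 at 3.72 CPM and Nrp2 at 3.25 CPM at E8.0. Their part in the values of r was not tested. For Plxnd1 they were Pecam1 (r = 0.94), Gimap1 (0.92) and Cldn5 (0.92), of which Pecam1 and Cldn5 served as markers of the endothelial gate. Sema3c was nearest to Parm1 (r = 0.92), Habp4 (0.89) and Fam69b (0.89), and Sema3d to Fras1 (0.90), Shox2 (0.90) and Habp4 (0.88). Sema3a was nearest to Tmem55a (0.93), Gm16141 (0.92) and Wbp1 (0.90), Plxna2 to Hsd17b10 (0.92), Ptprk (0.90) and Sox11 (0.90), Nrp1 to Sptan1 (0.97), Copa (0.95) and Ctnnd1 (0.95), and Nrp2 to Trp53i11 (0.89), Selk (0.88) and Actn4 (0.87). Among the 7 genes themselves the highest values were 0.83 for Sema3c with Sema3d and 0.79 for Nrp1 with Nrp2, and the lowest was -0.47 for Sema3c with Plxnd1.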

How the data were processed

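Single-cell RNA-seq libraries (10x Genomics version 2, 3′ end) of 4 stages were analysed. Per the labels, the authors aligned reads to mm10 with Cell Ranger 3.1.0 and deposited raw UMI counts per gene and cell, not normalized, as whole-number counts for barcodes called as cells. The total per library was 168407965, 110213770, 74920880 and 142850521 counts in the order of stages.

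Cells with at least 1000 genes and at most 10% mitochondrial counts were kept, and the cells with the highest Scrublet scores (scanpy 1.11.5) were removed at 0.8% per 1000 cells, because the automatic threshold marked only 0.0247% to 1.78%. This removed 460, 70, 131 and 519 cells. Gates used marker counts per cell in a fixed order: erythroid, macrophage, endothelial, cardiomyocyte (outflow if at least 2 of Isl1, Rspo3, Bmp4, Wnt11 and Tdgf1 and no Tbx5), cardiac progenitor (Isl1 and Nkx2-5) and other mesoderm. Raw counts were summed per library and compartment, and sums of at least 20 cells entered edgeR 4.0.16 (R 4.3.3; filterByExpr, TMM, glmQLFit and glmQLFTest) with library as a block, Benjamini-Hochberg adjustment over all genes tested and a threshold of 0.05. The 5 main compartments shared 1 fit and the Nfatc1 split had its own. The procedure was also run on simulated counts without an effect of library or stage, which cannot show whether the calls hold in these data. Alternatives are given in the closing section and include DESeq2 1.42.0.

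The 7 genes, the pathway list, the markers and the tests were chosen with earlier results of these data known. Genes were named as the 7 genes, pathway genes called in a comparison and the 3 genes nearest in pattern to each of the 7, among genes at a mean of at least 10 CPM. Intervals cover counting error only, and a sum of 0 is given the level of 3 counts as its upper limit. Start-site sequences came from a RefSeq table on GRCm38.p6, which held all 7 genes. Replicate libraries of a stage and mutant embryos were not analysed here.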

Additional observations from a re-analysis of the deposited data

Results flagged for a closer look

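Between cardiac progenitors and other mesoderm, 3 genes differed in opposite directions in both early and in both late libraries, without a test of that change. The log2 ratios in the order of stages were 1.85, 1.38, -0.73 and -1.29 for Sema3a. For Sema3d they were 1.31, 0.73, -1.23 and -0.66, the second within counting error. Plxna2 gave 0.45, 0.25, -0.34 and -1.78, the second again within counting error.

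Between Nfatc1-positive and Nfatc1-negative endothelial cells the same was seen for Nrp2, with log2 ratios of 0.10, 0.49, -1.0 and -0.98, of which the first was within counting error. For Plxna2 they were -0.24, -1.43, 0.25 and 0.80, of which the first and the third were within counting error. The difference between early and late libraries was not tested here either.

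Macrophages were in no comparison of compartments, and only those of E10.5 entered the search for similar patterns. In macrophages Nrp1 and Nrp2 in both late libraries, and Plxnd1 and Sema3c at E10.5, were above the limit that a count of 0 allows. Nrp1 was at 27.4 CPM in 12 macrophages at E9.5 and at 63.9 CPM in 78 at E10.5. Nrp2 was at 18.3 and 14.4 CPM in the same order. At E10.5 Plxnd1 was at 12.2 CPM and Sema3c at 2.25 CPM.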

How the results depend on the processing

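Plxnd1, Nrp1 and Sema3c in the endothelial comparison with progenitors, Plxnd1 and Sema3c in that with outflow cardiomyocytes, and Nrp1 and Nrp2 in outflow cardiomyocytes against progenitors kept direction and call under each of 12 alternatives. The count of called genes, 4 for outflow cardiomyocytes against progenitors, ranged from 2 to 4 when 1 library was left out. Over all genes those fits called from 1929 of 13109 to 3500 of 12835. Between the cardiomyocyte gates (1 called) it was 2 with no filter on low counts, 2 with stricter gates, 0 without the library block and 0 to 2 with 1 library left out. Over all genes these fits called 52 of 21550, 155 of 12870, 0 of 12605 and from 2 of 12763 to 51 of 12835. The main fit called 38 of 12605. For endothelial cells against progenitors (5 called) it was 3 without the library block, where 2280 of 12605 genes were called against 4862 in the main fit. For endothelial cells against outflow cardiomyocytes (3 called) it was 5 with DESeq2, where 4825 of 12605 genes were called against 4790. Progenitors against other mesoderm (0 called) gave 1 with only those 2 compartments fitted, where 404 of 13771 genes were called against 121 of 12605. The Nfatc1 split (0 called) gave 1 with no filter, where 279 of 17851 genes were called against 14 of 10327. The log2 fold change of Sema3d between endothelial cells and outflow cardiomyocytes turned from -2.70 to 6.65 under stricter gates, which left outflow sums of 38 and 34 cells with 0 UMIs of the gene. Genes counted between stages in endothelial cells (1) were 2 at 1.5-fold, 3 with looser gates, 2 with no doublet removal and 2 as a mean over cells, and the other 3 compartments stayed within 1.5 times. TMM-scaled totals moved late against early by -0.19 in progenitors, -0.11 in endothelial cells and -0.16 in other mesoderm on the log2 scale, and the counts were the same. For the other changes the cause was not tested. Nrp2 against other cardiomyocytes lost its call in 5 of 12 alternatives and Sema3d against outflow cardiomyocytes in 5 of 11, beside the reversal. The 10 outflow cells at E8.25, the 16 Plxna2 UMIs of the outflow gate and 1 library per stage limit what can be seen.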
